A study of Homo sapiens with 10 samples.

Results

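Aminoacyl-tRNA synthetases were followed over an HGF time course and in ITGB4-transduced cells. The list held 38 human genes, 22 for cytosolic synthetases and the scaffold proteins of their complex and 16 for mitochondrial synthetases. They were chosen by name, and a gene was read through every probe set whose only gene symbol was that of the gene. In this way 39 of the 22215 probe sets other than controls were found, and they stood for 27 of the 38 genes. The cells were of MDA-MB-435, a human melanoma line under standard growth conditions, and RNA was measured on 10 Affymetrix arrays, 2 for each of 5 groups. The groups were cells transduced with integrin beta4 (ITGB4), untreated cells, and cells treated with hepatocyte growth factor (HGF), the ligand of the MET receptor, for 1, 6 and 24 h. Every treated or transduced group was set against untreated cells as the common reference, and the time points were also compared with each other here. ITGB4 was raised by stable transduction, the sample descriptions of these cells also carry the word Mock, and no group of mock-transduced cells was used here, so transduction and ITGB4 cannot be told apart.

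Each synthetase attaches its own amino acid to the matching tRNAs, and the charged tRNA then brings that amino acid to the ribosome. In human cells, several cytosolic synthetases are held in a multi-synthetase complex by scaffold proteins without catalytic activity, among them AIMP1, while the others are free in the cytosol. Mitochondria use a separate set of nuclear-encoded synthetases, whose symbols end in 2, although KARS1 and GARS1 each make both the cytosolic and the mitochondrial enzyme. Many cytosolic synthetase genes are known targets of ATF4, a transcription factor whose translation rises under amino acid shortage and which binds a composite C/EBP-ATF response element.

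The sequences at the gene starts show which members carry the core letters of that element. The motif searched was TGATGCAA on both strands, which reads TTGCATCA on the opposite strand, in windows of 300 bases, 250 before and 50 after each gene start (RefSeq, GRCh38.p14). It was held by 304 of 35116 windows (0.866%), by 5 of the 14 windows of cytosolic members kept for testing, and by 0 of 6 windows of kept mitochondrial members. The 5 genes were AARS1, CARS1, IARS1, NARS1 and TARS1, and MARS1, which was not measured here, held it too. YARS1, VARS1 and LARS1 had no window in the table used and were not searched. Their stretches of 30 bases follow, each on the strand of its gene, with the motif in capitals, because AARS1 and CARS1 were the members whose calls at 24 against 6 h held in every alternative.
AARS1, chr16:70289675-70289704, minus strand, motif beginning 187 bases before the start: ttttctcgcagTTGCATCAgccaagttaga
CARS1, chr11:3057407-3057436, minus strand, motif beginning 2 bases before the start: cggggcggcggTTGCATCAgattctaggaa
IARS1, chr9:92293692-92293721, minus strand, motif beginning 13 bases before the start: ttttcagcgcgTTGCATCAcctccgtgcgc
NARS1, chr18:57621804-57621833, minus strand, motif within the first transcribed bases: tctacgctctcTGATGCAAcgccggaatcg
TARS1, chr5:33440956-33440985, plus strand, motif within the first transcribed bases: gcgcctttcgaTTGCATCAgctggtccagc

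With any base allowed at position 6 (TGATGNAA, which includes every TGATGCAA), 3.62% of all windows held a match, and GARS1 was added among the kept cytosolic members. The stretch of GARS1, chr7:30594834-30594863 on the plus strand, has the match in capitals, beginning 33 bases before the start.
GARS1: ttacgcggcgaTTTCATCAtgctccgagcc
The E-box CACGTG, which reads the same on both strands, was in 7.26% of all windows, and among kept members in those of IARS1 and CARS2. The 250 bases before the start of AARS1, chr16:70289507-70289756 on the minus strand, are given whole because this gene changed most between HGF time points, with the motif again in capitals.
AARS1: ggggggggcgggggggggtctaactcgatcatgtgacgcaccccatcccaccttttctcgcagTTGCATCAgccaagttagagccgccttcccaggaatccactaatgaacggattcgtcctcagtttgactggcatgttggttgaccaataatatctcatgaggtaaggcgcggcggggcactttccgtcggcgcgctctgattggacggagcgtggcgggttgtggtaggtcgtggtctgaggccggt
These matches describe the letters only, and binding was not measured.

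HARS1 and HARS2, the cytosolic and the mitochondrial histidyl-tRNA synthetase, lie head to head on opposite strands of chromosome 5, with starts 85 bases apart. The 84 bases between them, chr5:140691371-140691454, are given on the strand of HARS1 because both genes were measured and their values over time can be set beside each other.
HARS1 to HARS2: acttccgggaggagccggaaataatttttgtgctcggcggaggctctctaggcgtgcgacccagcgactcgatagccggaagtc
Neither TGATGNAA nor CACGTG was found in the windows of this pair.

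Of the 38 genes, 11 had no probe set of their own. MARS1, QARS1 and TARS2 were only on probe sets with several gene symbols, and AIMP2, EEF1E1 (the other complex scaffolds), FARSB, AARS2, EARS2, MARS2, PARS2 and VARS2 were on none in the annotation used. The values are RMA values on the log2 scale, in which a difference of 1 is a doubling, and levels of different probe sets are not compared with each other. A filter kept 45.6% of the probe sets by their second-highest value over the 10 arrays, of which the lowest was 7.31. All 25 probe sets of the 17 measured cytosolic genes were kept, against 7 of the 14 probe sets of mitochondrial genes, from 6 of 10 genes. The 7 left out were both of LARS2 and of RARS2, those of WARS2 and YARS2, and 1 of the 3 of FARS2. The 2 probe sets of RARS2 were the lowest, with means of 3.57 and 3.38. Below, a member is called changed where limma's Benjamini-Hochberg adjusted p over all kept probe sets was under 0.05, and n = 2 arrays a group throughout. Calls lost without moderation of the spread, or with adjustment over the 4 comparisons with untreated cells, are named only in the closing section.

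**Figure D1:**
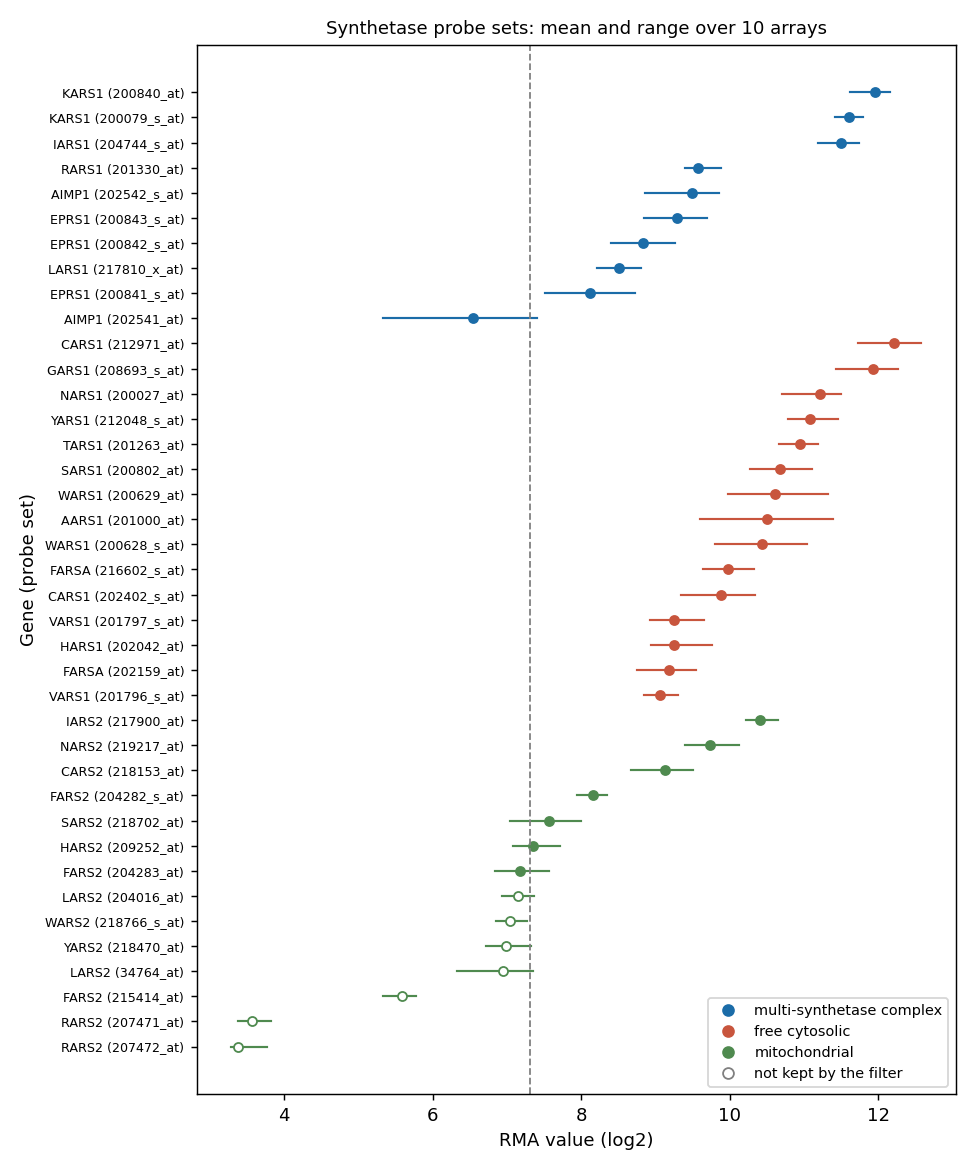
RMA values (log2, x axis) of the 39 member probe sets (y axis), with the point at the mean over the 10 arrays, the line over their range, colours for complex, free cytosolic and mitochondrial members, and the dashed line at 7.31. All cytosolic probe sets were kept, and the open points mark the 7 mitochondrial probe sets that were not.

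Array medians were between 6.81 and 6.88, but the values were normalized between arrays, so the medians cannot show whether an array stood apart. Of 13 measured melanocyte markers 12 were kept, and 4 of 17 epithelial markers, with median levels of 10.9 and 6.20. In RNA of whole cultures, fewer cells that express a gene and less RNA per cell cannot be told apart.

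After 1 h of HGF, 2 members of the complex were called lower and no member was called higher. The changed genes were EPRS1, the bifunctional glutamyl-prolyl-tRNA synthetase, and AIMP1, a scaffold of the complex. They account for 2 of 25 cytosolic probe sets, and 0 of 7 mitochondrial ones passed, beside 5.67% of all kept probe sets (5.08% lower and 0.592% higher). The middle of the 3 EPRS1 probe sets by mean level had 9.04 and 8.56 in ITGB4-transduced cells, 9.27 and 9.19 in untreated cells, 8.45 and 8.40 at 1 h, 8.80 and 8.72 at 6 h, and 9.02 and 8.86 at 24 h. Its lowest values were the 1 h pair, which lay below both untreated arrays. It was 1.75-fold lower at 1 h (log2 difference -0.80, SE 0.15, limma adjusted p = 0.0233). The other probe sets of EPRS1 differed by -0.76 and -0.64 (limma adjusted p = 0.0554 and 0.0647), and passed when either or both ITGB4 arrays were left out of the fit (0.0330 and 0.0229).

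The brighter of the 2 AIMP1 probe sets had 9.81 and 9.45 in ITGB4-transduced cells, 9.59 and 9.63 in untreated cells, 8.86 and 9.08 at 1 h, 9.85 and 9.72 at 6 h, and 9.60 and 9.33 at 24 h. The 1 h arrays held the lowest values of all 10, with no overlap with another group. The fall at 1 h was 1.56-fold (log2 difference -0.64, SE 0.15, limma adjusted p = 0.0391). The dimmer probe set differed by -1.05 at 1 h without passing, and passed without either or both ITGB4 arrays (limma adjusted p = 0.00856) or without HGF 1 h replicate 2 (0.0414). All its group means lay under 7.31, so the sizes of its differences are not exact. It was kept by the filter only through HGF 6 h replicate 2 and ITGB4 replicate 1, so its tests that involve the 6 h group are no independent support. Without HGF 1 h replicate 2 the dimmest EPRS1 probe set passed too (0.0407). The AIMP1 call was lost without either untreated array, HGF 1 h replicate 1 or either HGF 6 h array (limma adjusted p 0.0656 to 0.222), and that of EPRS1 without either untreated array or HGF 1 h replicate 1 (0.120 to 0.144).

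After 6 h of HGF, AARS1 was lower and HARS1 was higher than in untreated cells. These were 2 of 25 cytosolic probe sets, and 0 of 7 mitochondrial ones passed, beside 6.22% of all kept probe sets (2.33% lower and 3.9% higher). AARS1, the alanyl-tRNA synthetase, had 10.33 and 10.71 in ITGB4-transduced cells, 10.27 and 10.76 in untreated cells, 10.41 and 10.59 at 1 h, 9.60 and 9.71 at 6 h, and 11.21 and 11.39 at 24 h. Its values overlapped between the ITGB4, untreated and 1 h groups and were lowest on both 6 h arrays and highest on both 24 h arrays. It was 1.81-fold lower at 6 h than in untreated cells (log2 difference -0.86, SE 0.18, limma adjusted p = 0.0227).

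HARS1, the histidyl-tRNA synthetase, had 9.16 and 8.93 in ITGB4-transduced cells, 8.99 and 9.16 in untreated cells, 9.23 and 9.48 at 1 h, 9.59 and 9.76 at 6 h, and 8.98 and 9.21 at 24 h. Only the 6 h pair lay above every array of the other groups. The difference at 6 h was 1.52-fold (log2 0.60, SE 0.15, limma adjusted p = 0.0387). HARS2, its head-to-head neighbour, had 7.32 and 7.33 in ITGB4-transduced cells, 7.14 and 7.38 in untreated cells, 7.26 and 7.08 at 1 h, 7.40 and 7.72 at 6 h, and 7.18 and 7.62 at 24 h, with no call in any comparison. The AARS1 call was lost without untreated replicate 2 or either HGF 6 h array (limma adjusted p 0.134 to 0.179), and the HARS1 call without any of the untreated or 6 h arrays (0.115 to 0.280). CARS2, of the mitochondrial class, differed by 0.47 (limma adjusted p = 0.0753) and passed without either or both ITGB4 arrays (0.0444).

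**Figure D2:**
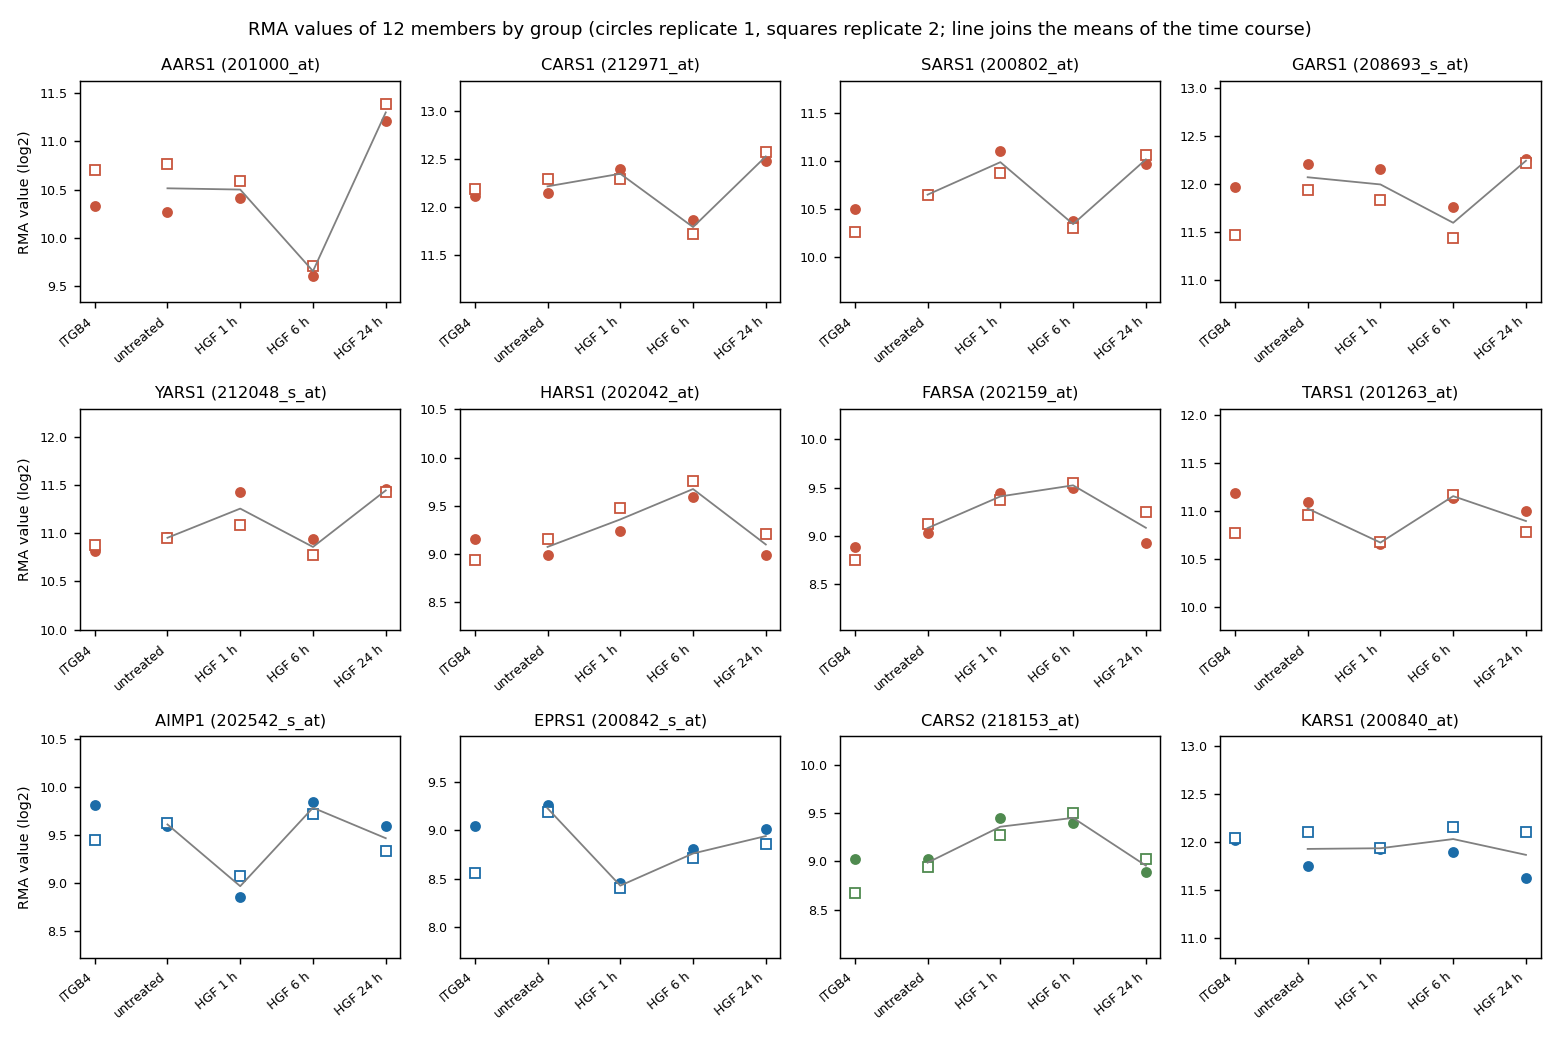
RMA values (log2, y axis) of 12 members in the 5 groups (x axis), with circles for replicate 1, squares for replicate 2 and a line through the means of the time course. AARS1, CARS1 and SARS1 were lowest at 6 h with both arrays below all others of the time course, HARS1 was highest there, and KARS1 stayed within 11.62 to 12.16 on all arrays.

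Between 1 and 6 h, 4 genes passed in the free cytosolic class and 1 in the complex. AARS1, CARS1 and SARS1 were lower at 6 h, and TARS1 and AIMP1 were higher. These were 7 of 25 cytosolic probe sets, 4 lower and 3 higher, and 0 of 7 mitochondrial ones, beside 18.3% of all kept probe sets (6.42% lower and 11.9% higher). CARS1, the cysteinyl-tRNA synthetase, had in its brighter probe set 12.12 and 12.19 in ITGB4-transduced cells, 12.14 and 12.29 in untreated cells, 12.40 and 12.30 at 1 h, 11.87 and 11.72 at 6 h, and 12.48 and 12.57 at 24 h. Both 6 h values were below, and both 24 h values above, all other arrays. The fall at 6 against 1 h was -0.55 (SE 0.12, limma adjusted p = 0.0126), and -0.63 (SE 0.13, limma adjusted p = 0.0110) in its dimmer probe set.

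SARS1, the seryl-tRNA synthetase, had 10.50 and 10.27 in ITGB4-transduced cells, 10.66 and 10.64 in untreated cells, 11.10 and 10.88 at 1 h, 10.38 and 10.31 at 6 h, and 10.97 and 11.07 at 24 h. The 1 and 24 h arrays formed the upper range and the 6 h and ITGB4 arrays the lower. SARS1 was 1.56-fold lower at 6 than at 1 h (log2 difference -0.64, SE 0.13, limma adjusted p = 0.0101), and AARS1 1.80-fold lower (-0.85, SE 0.18, limma adjusted p = 0.0119). Against untreated cells, CARS1 differed at 6 h by -0.42 (limma adjusted p = 0.0588), which missed the threshold.

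TARS1, the threonyl-tRNA synthetase, had 11.19 and 10.77 in ITGB4-transduced cells, 11.09 and 10.96 in untreated cells, 10.66 and 10.68 at 1 h, 11.14 and 11.17 at 6 h, and 11.00 and 10.79 at 24 h. Its lowest pair was that at 1 h, and the 6 h pair overlapped with the range of the ITGB4 arrays. The difference of 6 against 1 h was 0.48 (SE 0.15, limma adjusted p = 0.0460). AIMP1 was 1.76-fold higher at 6 than at 1 h in the brighter probe set (log2 0.81, SE 0.15, limma adjusted p = 0.00804) and differed by 1.59 in the dimmer (SE 0.28, limma adjusted p = 0.00659), which the filter kept through a 6 h array. These differences and those of AIMP1 at 1 h against untreated cells share the 1 h arrays, which were its lowest.

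Each of these calls between 1 and 6 h depended on particular arrays. Those of AARS1, CARS1 (brighter probe set), SARS1 and AIMP1 (brighter) were lost without HGF 1 h replicate 1 or either 6 h array, with limma adjusted p from 0.0535 (CARS1) to 0.114 (CARS1). Those of the dimmer probe sets of CARS1 and AIMP1 were lost without HGF 1 h replicate 1 (0.0575 and 0.0585) or 6 h replicate 2 (0.109 and 0.0627). The TARS1 call was lost without any of the untreated, 1 h or 6 h arrays (limma adjusted p 0.0666 to 0.194), without a filter (0.0580) and with median centring (0.0529).

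Between 6 and 24 h, calls were made in all 3 classes. AARS1, CARS1, SARS1, GARS1 and YARS1 were higher at 24 h, and HARS1 and FARSA were lower, which makes 7 of the 11 measured genes of the class. In the complex AIMP1 was lower, and among mitochondrial members CARS2 was lower. These were 9 of 25 cytosolic and 1 of 7 mitochondrial probe sets, beside 19.5% of all kept probe sets (6.96% higher and 12.6% lower). The median log2 difference was 0.59 over the 11 free cytosolic genes, -0.09 over 6 complex genes and 0.06 over 6 mitochondrial genes, against -0.01 over all kept probe sets.

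AARS1 changed most, being 3.13-fold higher at 24 than at 6 h (log2 1.65, SE 0.18, limma adjusted p = 0.000961). CARS1 was 1.66-fold higher in the brighter probe set (log2 0.73, SE 0.12, limma adjusted p = 0.00327) and 1.74-fold in the dimmer (0.80, SE 0.13, limma adjusted p = 0.00331). In both genes the 24 h pair did not overlap with any other group. These 3 calls remained in every alternative in which they were tested, and the highest limma adjusted p with an array left out was 0.0163 for AARS1 and 0.0472 for CARS1.

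SARS1 was 1.59-fold higher at 24 than at 6 h (log2 0.67, SE 0.13, limma adjusted p = 0.00653), a call lost only without HGF 6 h replicate 2 (0.0644). GARS1, the glycyl-tRNA synthetase of both compartments, had 11.97 and 11.46 in ITGB4-transduced cells, 12.21 and 11.93 in untreated cells, 12.16 and 11.83 at 1 h, 11.76 and 11.43 at 6 h, and 12.26 and 12.22 at 24 h. The 24 h pair was the highest and closest together, while replicate 1 was above replicate 2 in all 5 groups. The difference was 0.64 (SE 0.19, limma adjusted p = 0.0368) and was lost without any of the 4 arrays compared (0.0634 to 0.251).

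YARS1, the tyrosyl-tRNA synthetase, had 10.81 and 10.88 in ITGB4-transduced cells, 10.96 and 10.95 in untreated cells, 11.43 and 11.09 at 1 h, 10.94 and 10.78 at 6 h, and 11.46 and 11.43 at 24 h. Its 24 h pair was highest, with HGF 1 h replicate 1 almost level with the lower of them. The difference of 24 against 6 h was 0.59 (SE 0.13, limma adjusted p = 0.0134), lost without HGF 6 h replicate 2 (0.119) or 24 h replicate 1 (0.0629).

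In the free cytosolic class, the synthetases called lower at 24 than at 6 h were those for histidine and phenylalanine. HARS1 was 1.49-fold lower (log2 difference -0.58, SE 0.15, limma adjusted p = 0.0205), lost without either 6 h array or 24 h replicate 1 (0.0607 to 0.159). FARSA, the alpha subunit of phenylalanyl-tRNA synthetase, had in its dimmer probe set 8.89 and 8.75 in ITGB4-transduced cells, 9.03 and 9.13 in untreated cells, 9.44 and 9.37 at 1 h, 9.50 and 9.55 at 6 h, and 8.92 and 9.24 at 24 h. Both early HGF pairs lay above all other arrays. The fall of FARSA was -0.44 (SE 0.13, limma adjusted p = 0.0402), and its brighter probe set differed by -0.42 without passing. The FARSA call was lost without either untreated array, either 6 h array or 24 h replicate 1 (limma adjusted p 0.0626 to 0.224), without a filter (0.0606), with median centring (0.0637) and in the fit of only the groups compared (0.0564).

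In the complex, the AIMP1 call rests on the probe set that was kept through a 6 h array. AIMP1 differed by -0.89 at 24 against 6 h in the dimmer probe set (SE 0.28, limma adjusted p = 0.0459) and by -0.32 in the brighter, which did not pass. The values of the dimmer probe set were 7.40 and 6.38 in ITGB4-transduced cells, 6.63 and 6.70 in untreated cells, 5.33 and 5.90 at 1 h, 7.08 and 7.34 at 6 h, and 6.36 and 6.28 at 24 h. Its ITGB4 duplicates lay farther apart than the means of the 24 and 6 h groups. The call was lost without any of the untreated, 6 h or 24 h arrays (limma adjusted p 0.0626 to 0.234), with cyclic loess (0.0508) and with the trended and robust prior (0.0559). RARS1, the arginyl-tRNA synthetase of the complex, differed by -0.36 (limma adjusted p = 0.0527).

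**Figure D3:**
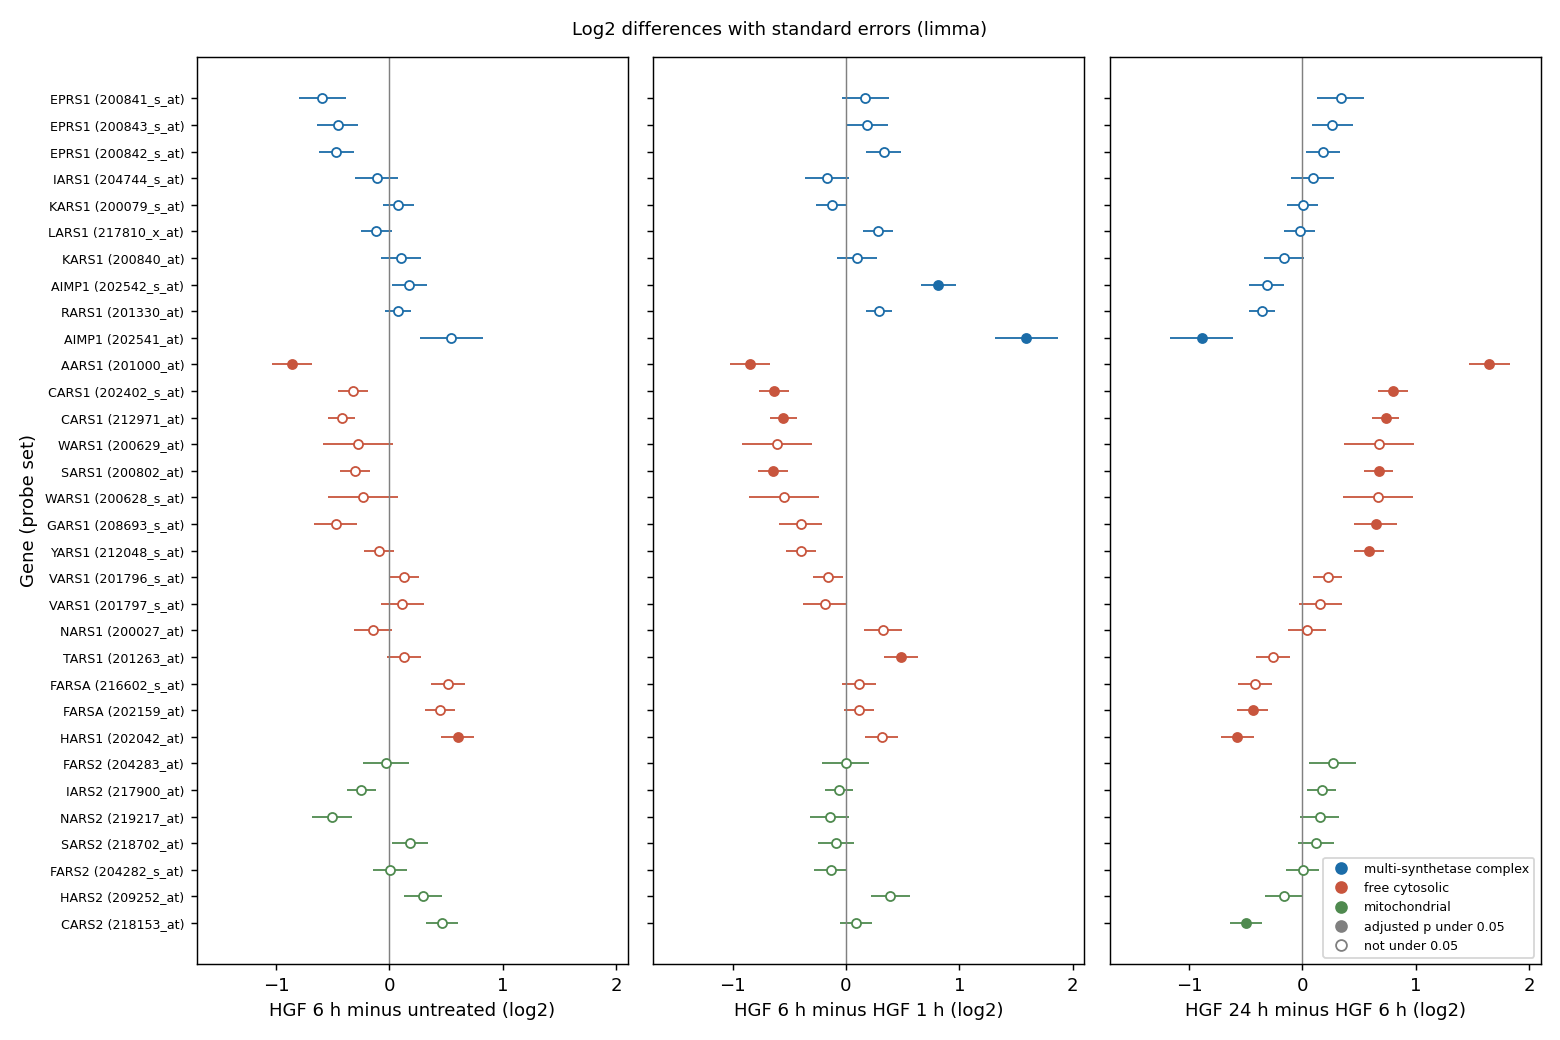
Log2 differences (x axes) with standard errors of the 32 kept member probe sets (y axis) for HGF 6 h minus untreated, HGF 6 h minus 1 h and HGF 24 h minus 6 h, with filled points for limma adjusted p under 0.05. At 24 against 6 h, 6 free cytosolic probe sets were called higher, with AARS1 farthest at 1.65.

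The other measured members of the complex passed in no comparison. KARS1, the lysyl-tRNA synthetase, had in its brighter probe set 12.02 and 12.04 in ITGB4-transduced cells, 11.75 and 12.11 in untreated cells, 11.93 and 11.94 at 1 h, 11.90 and 12.16 at 6 h, and 11.62 and 12.11 at 24 h. IARS1, the isoleucyl-tRNA synthetase, had 11.65 and 11.19 in ITGB4-transduced cells, 11.74 and 11.32 in untreated cells, 11.70 and 11.47 at 1 h, 11.55 and 11.28 at 6 h, and 11.60 and 11.41 at 24 h. Their groups overlapped, and replicate 1 of IARS1 was above replicate 2 in every group. LARS1 and RARS1, for leucine and arginine, are the others without a call in the 7 comparisons.

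Of the free cytosolic class, NARS1, VARS1 and WARS1 passed in no comparison. NARS1, the asparaginyl-tRNA synthetase, had 11.50 and 11.26 in ITGB4-transduced cells, 11.40 and 11.33 in untreated cells, 10.70 and 11.08 at 1 h, 11.30 and 11.13 at 6 h, and 11.43 and 11.08 at 24 h. WARS1, the tryptophanyl-tRNA synthetase, which interferon induces, had in its brighter probe set 10.43 and 9.98 in ITGB4-transduced cells, 10.93 and 10.25 in untreated cells, 11.32 and 10.53 at 1 h, 10.65 and 9.98 at 6 h, and 11.10 and 10.87 at 24 h. Replicate 1 of WARS1 was above replicate 2 in all 5 groups with an SD of up to 0.56 within a group. Its differences of 24 against 6 h were 0.67 and 0.66 in its probe sets (limma adjusted p = 0.149 and 0.157). The brighter passed there in the fit of only the groups compared (limma adjusted p = 0.0469). Both passed with the replicate number as a block, as given in the closing section.

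Among mitochondrial synthetases, CARS2 was the only kept member called in any comparison. The range of the group means had a median of 0.39 over the 7 kept mitochondrial probe sets and 0.64 over the 25 cytosolic ones, against 0.42 over all kept probe sets, and a difference between the classes was not tested. CARS2, the mitochondrial cysteinyl-tRNA synthetase, had 9.02 and 8.67 in ITGB4-transduced cells, 9.03 and 8.95 in untreated cells, 9.45 and 9.27 at 1 h, 9.40 and 9.51 at 6 h, and 8.89 and 9.03 at 24 h. Its 1 and 6 h arrays all lay above those of the other groups, whereas both probe sets of its cytosolic counterpart CARS1 were lowest at 6 h. CARS2 was 1.41-fold lower at 24 than at 6 h (log2 difference -0.50, SE 0.14, limma adjusted p = 0.0320), a call lost without any of the untreated, 6 h or 24 h arrays (0.0512 to 0.193), and CARS1 was higher there, as given above. Whether the changes of the 2 genes differ was not tested.

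The other kept mitochondrial members passed in no comparison. IARS2 had 10.40 and 10.30 in ITGB4-transduced cells, 10.45 and 10.64 in untreated cells, 10.28 and 10.43 at 1 h, 10.38 and 10.21 at 6 h, and 10.49 and 10.44 at 24 h. NARS2 had 10.06 and 9.76 in ITGB4-transduced cells, 10.12 and 9.87 in untreated cells, 9.88 and 9.39 at 1 h, 9.42 and 9.56 at 6 h, and 9.62 and 9.67 at 24 h. Both NARS2 values at 6 h were below both untreated ones, with a difference of -0.51 (limma adjusted p = 0.105). Of the probe sets under the filter, only YARS2 passed in a fit over all probe sets, with -0.45 at 24 against 6 h (SE 0.13, limma adjusted p = 0.0400), and its values of 6.72 and 6.91 at 24 h, against 7.20 and 7.33 at 6 h, lay near or under 7.31.

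At 24 h no member differed from untreated cells by limma (0 of 32 kept probe sets, beside 0% of all), and 7 of the 32 had an unadjusted p under 0.05. The largest difference was that of AARS1, at 0.79 (SE 0.18, limma adjusted p = 0.345), with both 24 h arrays above both untreated ones. Against HGF 1 h, again 0 of 32 passed at 24 h by limma, beside 0.00986% of all, with 9 at an unadjusted p under 0.05. AARS1 differed there by 0.80 (limma adjusted p = 0.122). Probe sets with an unadjusted p under 0.05 were not counted over all kept ones, so the 7 and the 9 have no share beside them.

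In ITGB4-transduced cells 0 of 32 member probe sets differed from untreated cells by limma, beside 0.0493% of all. Of the 32, 1 had an unadjusted p under 0.05, and the share of all under it was again not counted. AARS1 averaged 10.52 ± 0.27 in ITGB4-transduced cells and 10.51 ± 0.35 in untreated cells (SD, n = 2 each), with a difference of 0.00 (SE 0.18). Over the genes, 6 differences were positive and 17 negative, from -0.38 to 0.17 with a median of -0.09, against 0.00 over all kept probe sets. The signs were not counted over all kept probe sets. By array, the median deviation of the genes from the untreated mean was 0.04 on ITGB4 replicate 1 and -0.16 on replicate 2. The unadjusted p under 0.05 belonged to the same EPRS1 probe set as at 1 h, at -0.43. In both this comparison and that at 24 h, the count stayed at 0 in every alternative tried.

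**Figure D4:**
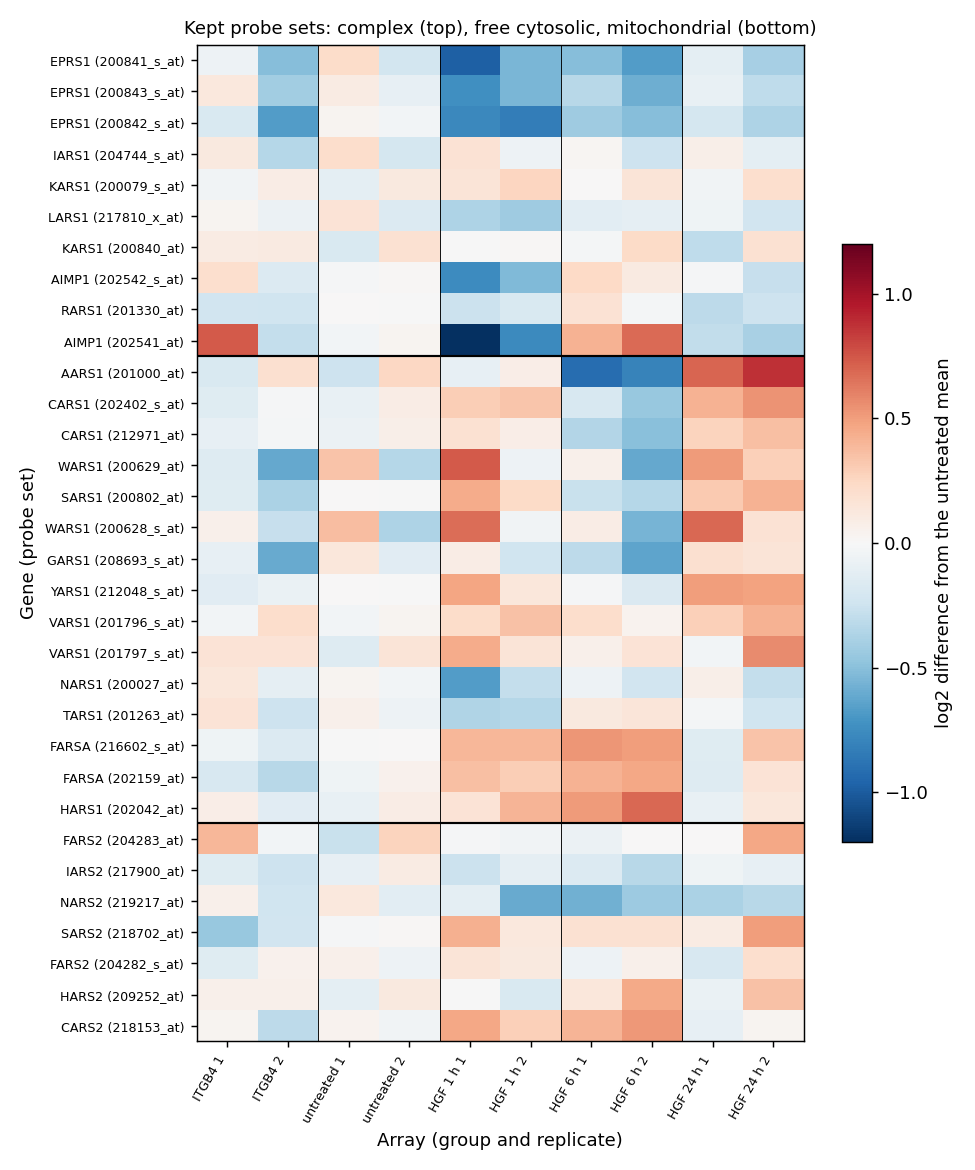
Log2 difference of each array (columns, 2 for each group) from the mean of the untreated arrays for the 32 kept member probe sets (rows), with complex members at the top, free cytosolic members in the middle and mitochondrial members at the bottom, and colours stop at the ends of the printed scale. AARS1 is lowest on the 6 h arrays (RMA values 9.60 and 9.71, untreated mean 10.51) and highest on the 24 h arrays (RMA values 11.21 and 11.39).

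The time point with the lowest or highest mean was counted in each class. Of the free cytosolic probe sets 8 of 15 (53.3%) had their lowest mean of the time course at 6 h, of the complex 1 of 10 and of mitochondrial members 3 of 7, against 31.3% of all kept probe sets. The highest mean was at 6 h in 4 of 15, 4 of 10 and 2 of 7, against 32.1% of all. The 4 of the complex include the dimmer AIMP1 probe set, which the filter kept only through a 6 h array and an ITGB4 array. Its place in that count is not independent of the filter. Probe sets of the same gene share their RNA, so these counts are a description, and a difference between the classes was not tested.

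ATF4 mRNA had its lowest values at 6 h as well. The values of ATF4 were 12.17 and 11.73 in ITGB4-transduced cells, 11.92 and 12.16 in untreated cells, 12.19 and 12.16 at 1 h, 10.93 and 10.87 at 6 h, and 12.07 and 12.19 at 24 h. It was lower at 6 h than in untreated cells (log2 difference -1.14, SE 0.15, limma adjusted p = 0.00457) and higher at 24 than at 6 h (1.23, SE 0.15, limma adjusted p = 0.00137). Here and in the lists below, a gene counted as called where any of its kept probe sets passed. The shares of all are of probe sets. Of the 12 measured members listed as ATF4 targets, 5 were higher and 0 lower at 24 against 6 h, with a median of 0.42. By probe set, 6 were higher and 0 lower of 17, beside 6.96% higher and 12.6% lower of all kept probe sets. Of the 5 other cytosolic genes, FARSA, HARS1, KARS1, RARS1 and AIMP1, 0 were higher and 3 lower, with a median of -0.36. By probe set, 0 were higher and 3 lower of 8. Of the 3 genes, AIMP1 was called only in its dimmer probe set, which the filter kept through a 6 h array and an ITGB4 array. The lists were chosen with earlier results of these data known. The split of targets from others is therefore a description, and a difference between them was not tested. At 6 against 1 h the counts were 1 higher (TARS1) and 3 lower genes for the targets (1 and 4 of 17 probe sets). For the others they were 1 higher and 0 lower (2 and 0 of 8 probe sets), beside 11.9% higher and 6.42% lower of all. At 6 h against untreated cells, the targets had 0 higher and 1 lower, and the others 1 higher and 0 lower, by gene and by probe set alike. Of all kept probe sets, 3.9% were higher and 2.33% lower there. IARS1, NARS1 and TARS1, which hold TGATGCAA, were not called at 24 against 6 h. ATF4 protein was not measured.

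Genes of the integrated stress response were measured on the same arrays. Of the 22 kept genes of that list, ATF4 among them, 6 were lower and 1 higher at 6 h than in untreated cells. By probe set, 6 were lower and 1 higher of 30. At 24 against 6 h, 12 genes were higher and 1 lower (13 and 1 of 30 probe sets). Of all kept probe sets, 2.33% were lower and 3.9% higher at 6 h, and 6.96% higher and 12.6% lower at 24 against 6 h. Among them NUPR1, a stress-induced nuclear protein, was higher by 1.41 on the log2 scale at 24 than at 6 h (SE 0.18, limma adjusted p = 0.00137) and TRIB3, a pseudokinase that ATF4 induces, by 1.33 (SE 0.26, limma adjusted p = 0.00641).

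Called genes for factors that act before or after the synthetases were higher at 6 h. Of 38 kept genes for tRNA processing and export, 5 were higher and 0 lower at 6 h than in untreated cells. By probe set, 6 were higher and 0 lower of 43. At 24 against 6 h, 0 genes were higher and 10 lower (0 and 11 of 43 probe sets). Of all kept probe sets, 3.9% were higher at 6 h and 12.6% lower at 24 against 6 h. PUS1, a tRNA pseudouridine synthase, was higher by 0.98 on the log2 scale at 6 h (SE 0.19, limma adjusted p = 0.0178), and TRMT1, a tRNA guanine methyltransferase, by 0.72 (SE 0.14, limma adjusted p = 0.0152). WDR4 and METTL1, the subunits of the tRNA 7-methylguanosine methyltransferase, were higher by 0.64 and 0.55 (limma adjusted p = 0.0151 and 0.0441). The means of WDR4 were 7.59 at 6 h, 6.95 in untreated cells, 7.14 at 1 h and 6.98 at 24 h. Of these only the 6 h mean was above 7.31, the lowest second-highest value kept. If the filter kept WDR4 through its 6 h arrays, which was not checked, its call at 6 h is not independent of the filter. The size of its difference is not exact, nor is that of PUS1, whose means were 7.21 in untreated cells and 7.03 at 24 h.

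Of the cytosolic translation factors, 8 of 38 kept genes were higher and 0 lower at 6 h against untreated cells. At 6 against 1 h, 13 were higher and 2 lower (EIF4B and EIF4EBP1), and at 24 against 6 h, 0 were higher and 13 lower. By probe set, 15.1%, 38.4% and 39.7% of 73 were called in these comparisons, beside 6.22%, 18.3% and 19.5% of all kept probe sets. EIF3J, a subunit of initiation factor eIF3, was higher by 1.12 at 6 h (SE 0.27, limma adjusted p = 0.0394), EIF4G1, the scaffold of the cap-binding complex, by 0.74 (SE 0.13, limma adjusted p = 0.0120), and GSPT1, a release factor, by 0.69 (SE 0.13, limma adjusted p = 0.0148). Of 12 kept mitochondrial translation factors 1 was higher and 0 lower at 6 h. It was TRMU, which thiolates mitochondrial tRNAs, with 0.60 (SE 0.12, limma adjusted p = 0.0180). Among the synthetases, HARS1 was the only called member with this direction at 6 h against untreated cells.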

How the data were processed

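RNA of 10 MDA-MB-435 samples was hybridised to Affymetrix hgu133a arrays. The authors computed RMA values with the affy package and deposited them as log2 values normalized between arrays, and versions are not given in the sources used here. Presence calls were not used here. Instead, the same number of probe sets as the study's filter left was kept by their second-highest value. Symbols came from the platform annotation, and 68 control probe sets were left out. Group means were estimated over the 10 arrays jointly with limma 3.58.1 in R 4.3.3 (5 residual degrees of freedom), and p-values were adjusted within each of 7 comparisons. The fit was tested on simulated data. The paper calls the duplicates biological, p-values measure the spread between them, and an exact test of 2 against 2 cannot go under 0.333. Values per array are given for members that passed anywhere and, per class, the 2 with the highest mean of the rest, with HARS2 and YARS2 chosen after their values were seen. From other lists at most 4 genes each way are named. Members and lists were chosen with earlier results of these data known. The alternatives are named in the closing section. The fit without both ITGB4 arrays was chosen after seeing the data.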

Additional observations from a re-analysis of the deposited data

Results flagged for a closer look

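The member results below are those in which 2 HGF time points differed by a direct limma test between them (adjusted p under 0.05), given as log2 differences of the later minus the earlier time. For 6 against 1 h they were 1.59 and 0.81 for the probe sets of AIMP1, -0.85 for AARS1, -0.63 and -0.55 for those of CARS1, -0.64 for SARS1 and 0.48 for TARS1. For 24 against 6 h they were 1.65 for AARS1, 0.80 and 0.73 for the probe sets of CARS1, 0.67 for SARS1, 0.64 for GARS1, 0.59 for YARS1, -0.44 for FARSA, -0.50 for CARS2, -0.58 for HARS1 and -0.89 for AIMP1. Both comparisons share the 6 h arrays, so one with a low value at 6 h tends to appear in both. With 2 arrays in each group, it cannot be told which array of a pair lies far off. The spread of a pair was not tested against that of the other groups.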

How the results depend on the processing

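Across 21 alternatives none of the called tests changed its direction, and 3 of the 21 called tests, AARS1 and both probe sets of CARS1 at 24 against 6 h, remained called in all of those that could be run for them. Without moderation of the spread the count of called cytosolic probe sets was 0 at 1 h against untreated cells, 0 at 6 h, 0 at 6 against 1 h and 4 at 24 against 6 h, with 0 mitochondrial ones at 24 against 6 h. For 1 h against untreated cells (2 in the report) it was 4 without a filter, 4 with median centring, 4 in the fit of only the groups compared, 1 with adjustment over the 4 comparisons with untreated cells and 5 without both ITGB4 arrays. For 6 h against untreated cells (2 in the report) it was 10 in the fit of only the groups compared and 1 with adjustment over the 4 comparisons, and for mitochondrial ones (0 in the report) 2 in the fit of only the groups compared and 1 without both ITGB4 arrays. Without a filter 2 mitochondrial probe sets passed at 24 against 6 h. The 4 cytosolic calls left at 24 against 6 h without moderation of the spread were those of AARS1, SARS1 and both probe sets of CARS1. All other member calls were lost without moderation. Adjustment over the 4 comparisons with untreated cells lost the calls of AIMP1 at 1 h and HARS1 at 6 h. With each array left out in turn, the cytosolic counts were 0 to 5 at 1 h, 0 to 3 at 6 h, 0 to 7 at 6 against 1 h and 3 to 9 at 24 against 6 h, and the mitochondrial ones 0 to 1 at 6 h and 0 to 1 at 24 against 6 h. The stricter filter, cyclic loess, the trended and robust prior and the mean of the probe sets of a gene moved no other count by more than 1.5 times. Samples with the same replicate number deviated together with r from -0.14 to 0.46 over 10 pairs of groups, not above 0.1 in every pair, and the labels name nothing that a number shares, so the numbers were not taken to pair the samples. With the replicate number as a block, 4 cytosolic probe sets passed at 1 h against untreated cells, and 8 member tests in all were added, among them both probe sets of WARS1 at 6 against 1 h (limma adjusted p = 0.0164 and 0.0177) and at 24 against 6 h (0.00673 and 0.0107). The causes of these shifts were not tested. Duplicate arrays limit every difference, and near 7.31 and below the sizes are not exact.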

Other observations

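The replicate number went with the level of several members. Over all 5 groups replicate 1 was always above or always below replicate 2 in 8 of the 25 cytosolic probe sets (32%) and in 0 of the 7 kept mitochondrial ones, against 12.5% of all kept probe sets. The 8 were both probe sets of WARS1 and of KARS1, those of IARS1, GARS1 and AARS1, and that of EPRS1 called lower at 1 h. Replicate 1 was below replicate 2 in those of KARS1 and AARS1 and above it in the others. The labels do not say what samples of a number share.

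At 1 h against untreated cells, 2 of the 22 kept genes of the integrated stress response list were higher and 0 lower. By probe set, 2 were higher and 0 lower of 30. Of all kept probe sets, 5.67% were called and 0.592% called higher. DDIT3, a transcription factor of the stress response, was higher at 1 h than in untreated cells (log2 difference 0.64, SE 0.14, limma adjusted p = 0.0300) and lower at 6 h (-0.60, SE 0.14, limma adjusted p = 0.0337). No cytosolic synthetase was called higher at 1 h. Of the free cytosolic genes, 7 differences were positive and 4 negative, with a median of 0.29. In the complex, 2 were positive and 4 negative, with a median of -0.31, against 0.06 over all kept probe sets. The signs were not counted over all kept probe sets.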
